A study of Mus musculus with 8 samples.

Results

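The 9 transcription regulators described here are Cux1, Cux2, Rorb, Bcl11b, Fezf2, Tbr1, Foxp2, Tle4 and Sox5, which are widely used to tell the layers of the cerebral cortex apart. They were taken by symbol from the 32285 genes counted in each of 8 single-nucleus RNA libraries of mouse cerebral cortex at postnatal day 25. The libraries came from 4 wild-type (WT) and 4 Chd8+/- (Chd8 het) C57BL/6J mice, each genotype being represented by 2 males and 2 females, 1 mouse to a library. Chd8 encodes a chromatin remodeller, the medial cortex had been removed from all samples, and the nature of the Chd8 allele is not given in the sources used here. Single indexes were used for the libraries numbered 1 and dual indexes for those numbered 2, which gives WT and Chd8 het the same number of each. Levels are UMIs of a gene per 1000000 UMIs (CPM), summed over the nuclei of a type in 1 library, where a UMI (unique molecular identifier) tags 1 captured RNA molecule.

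Neurons of the cortical layers are born in sequence and send their axons to different targets. Intratelencephalic (IT) neurons of all layers project within the forebrain, extratelencephalic (ET) neurons of layer 5 project to the brainstem and spinal cord, corticothalamic neurons of layer 6 project to the thalamus, near-projecting neurons of layers 5 and 6 have few distant targets, and layer 6b holds neurons that descend from the subplate. In development Fezf2, Bcl11b, Tbr1 and Sox5 take part in a network of mutual restraint that separates these classes, and many of the factors stay on in the adult neuron. The homeodomain factors Cux1 and Cux2 mark upper layers, and the nuclear receptor Rorb marks layer 4.

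Excitatory nuclei were assigned to types by 7 other genes, so that no member took part in the assignment. Of 77655 nuclei kept, 25785 passed as excitatory, and each nucleus entered a gate when it held at least 3 UMIs of the gate gene and at least 2 times that gene's mean level. The gates held 1084 nuclei (Ccbe1), 960 (Deptor), 1914 (Galnt14), 229 (Erg), 1084 (Vwc2l) and 3809 (Hs3st4). No nucleus passed the Nxph4 gate, because 55 excitatory nuclei had any Nxph4 UMI and none had 3. The other 16705 excitatory nuclei are called the remainder. Of marker genes listed for each type and not used as gates, 4 of 6 upper-layer IT markers were highest in the Ccbe1 gate, 4 of 5 layer 5 IT markers in the Deptor gate, 5 of 5 near-projecting markers in the Vwc2l gate and 3 of 4 corticothalamic markers in the Hs3st4 gate. These are called upper-layer IT-like, layer 5 IT-like, near-projecting-like and corticothalamic-like. In the Galnt14 and Erg gates 2 of 5 markers of deep IT and of ET neurons were highest, so these 2 gates are named by their gate gene.

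The gates were enriched rather than pure. In a separate clustering of the excitatory nuclei, also made without the 9 members, clusters matched to the same gate gene held 85.8% of the Hs3st4 gate, 84.7% of the Erg gate, 81.6% of the Deptor gate, 61.9% of the Ccbe1 gate and 52.7% of the Galnt14 gate. They held 34.8% of the Vwc2l gate, of which another 12.9% lay in Ccbe1-type clusters. The libraries held 69503598 to 98132783 UMIs each. Chd8 RNA did not separate the genotypes in excitatory nuclei (72.5 to 79.3 CPM in WT and 74.8 to 88.6 CPM in Chd8 het libraries, exact two-sided permutation p = 0.8), so the genotype rests on the labels, and this gene's level does not check them. The library labelled Chd8 het male 2 stood apart: it gave 90.08% of the nuclei of 1 cluster (cluster 18) and had the lowest Rorb level in the remainder. Results that turn on it are given with and without it.

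Across the 6 gates 25 of 54 comparisons of a member in 1 gate against the mean of the other 5 gates were called at an adjusted p under 0.05 and at least 2-fold (edgeR quasi-likelihood test with Benjamini-Hochberg adjustment over all genes), against 4.47% of all 70386 comparisons. Every member was called in at least 1 gate. The plot of levels by gate shows each library.

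**Figure D1:**
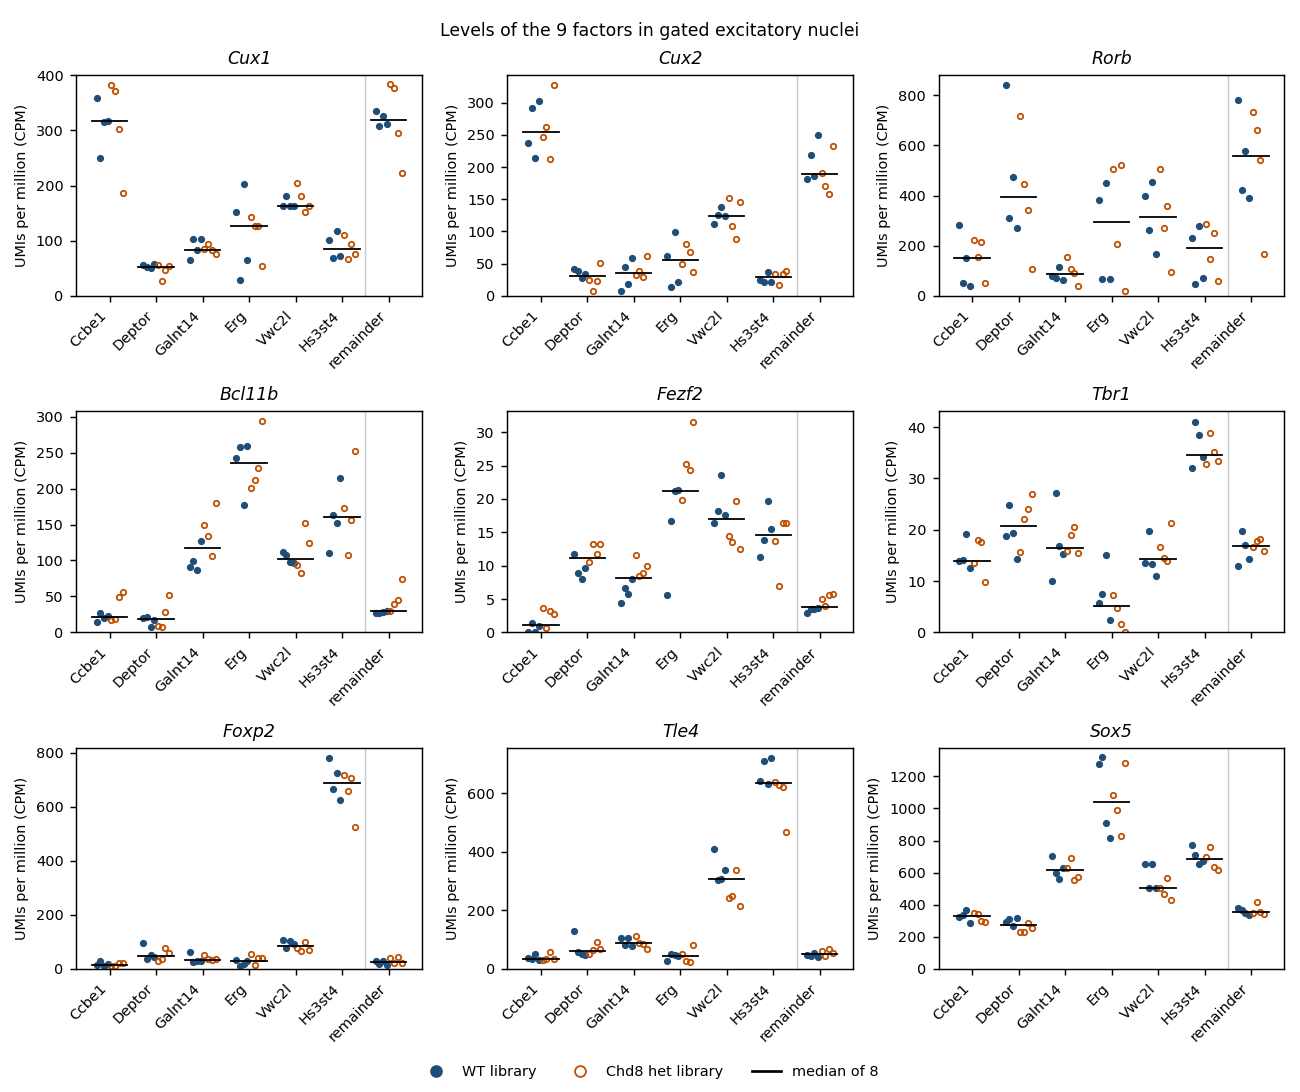
Level of each factor in CPM (vertical axis, from 0) in the 6 gates and the remainder (horizontal axis), with 1 point per library (filled, WT; open, Chd8 het) and a line at the median of 8. Foxp2 sits at 526 to 781 in the Hs3st4 gate and at no more than 107 in any other gate.

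Of the 2 members called higher in the Ccbe1 gate, Cux2 had the larger difference. Cux2 encodes a CUT homeodomain factor of upper-layer neurons (GRCm38 chr5:121856366-122050102, minus strand). Its level in the Ccbe1 gate had a lowest, median and highest library of 212, 254 and 328 CPM. In the Vwc2l gate these values were 87.9, 124 and 152 CPM, and in the Hs3st4 gate 17.4, 28.8 and 38.7 CPM. All 8 libraries of the Ccbe1 gate lay above all 8 of the Vwc2l gate, while the Erg, Galnt14, Deptor and Hs3st4 gates, with medians of 55.4, 35.0, 30.7 and 28.8 CPM, overlapped one another. The difference from the mean of the other gates was 2.53 on the log2 scale in the Ccbe1 gate (SE 0.12, adjusted p = 6.69e-25, edgeR). Cux2 was also called higher in the Vwc2l gate (1.11, SE 0.14) and lower in the Hs3st4 (-1.47, SE 0.15) and Deptor gates (-1.19, SE 0.18), though with types from clusters the Deptor value was -0.21 and not called. The Vwc2l value depends on how the type is drawn: with types from clusters Cux2 was lower there (-0.86), and in cluster 16, led by Nxph1 and Vwc2l, it stood at 4.83, 23.8 and 34.5 CPM.

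Cux1, the paralogue of Cux2, followed it over the gates (GRCm38 chr5:136248135-136567490, minus strand). Its lowest, median and highest levels were 186, 316 and 382 CPM in the Ccbe1 gate, 151, 163 and 205 CPM in the Vwc2l gate and 25.8, 52.6 and 57.8 CPM in the Deptor gate. Cux1 was higher in the Ccbe1 gate than in the Vwc2l gate in all 8 libraries, although the 2 ranges overlapped. It was called higher in the Ccbe1 gate (log2 1.76, SE 0.09) and lower in the Deptor gate (-1.38, SE 0.13). Over the 6 gates the correlation of Cux1 with Cux2 was 0.95. An antisense gene, Gm16599, overlaps Cux1 on the opposite strand, was counted at 104% of the UMIs of Cux1 in excitatory nuclei and had the most similar pattern of any gene tested (correlation 0.997 over 6 gates). The strand setting of the counting is not given in the sources used here, so reads of the 2 genes cannot be told apart.

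Start-site sequence is shown for Cux1 and Cux2, which shared their highest gate, and for Tbr1 and Tle4, which shared the Hs3st4 gate. Windows from 250 bases before to 50 after each RefSeq start (GRCm38.p6) were found for 8 of the 9 members, all but Foxp2, and were searched on both strands for 6 short motifs. The CUT motif was spelled ATCGAT and the SOX motif AACAAT. Forkhead factors were represented by TGTTTAC and the ROR receptors by AGGTCA. The T-box motif was GGTGTGA and the E-box was CAGATG, and no motif contains another. Cux2, Tle4 and Rorb have 2 windows each, from 2 starts, and the other 5 members have 1. Matches are shown for 4 windows, of Cux2, Cux1, Tbr1 and Tle4, and these 4 lie inside the gene spans given in this text. The other windows of Cux2 (chr5:122049802-122050101) and Tle4 (chr19:14598134-14598433) and the windows of Rorb, Bcl11b, Fezf2 and Sox5 held none. Capitals mark the matches below, sequences run 5′ to 3′ on the gene's strand, and parts that lie in annotated untranslated or coding exons are left out, except for 30 bases at the Cux1 match.
Cux2 (chr5:122047826-122048075, minus strand): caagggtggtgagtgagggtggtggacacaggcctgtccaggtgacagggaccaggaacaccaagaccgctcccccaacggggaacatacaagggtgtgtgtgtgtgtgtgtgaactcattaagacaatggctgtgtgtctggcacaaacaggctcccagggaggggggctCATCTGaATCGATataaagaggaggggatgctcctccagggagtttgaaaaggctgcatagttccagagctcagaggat
Cux1 (chr5:136566121-136566150, minus strand): cccaccccgttTGTTTACgtcccggggcca
Tbr1 (chr2:61804203-61804452, plus strand): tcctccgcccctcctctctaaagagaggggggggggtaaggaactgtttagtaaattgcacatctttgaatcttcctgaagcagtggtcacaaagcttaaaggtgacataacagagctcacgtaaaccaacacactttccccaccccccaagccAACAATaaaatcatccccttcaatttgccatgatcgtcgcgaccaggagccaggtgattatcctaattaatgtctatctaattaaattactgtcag
Tle4 (chr19:14597164-14597367, minus strand): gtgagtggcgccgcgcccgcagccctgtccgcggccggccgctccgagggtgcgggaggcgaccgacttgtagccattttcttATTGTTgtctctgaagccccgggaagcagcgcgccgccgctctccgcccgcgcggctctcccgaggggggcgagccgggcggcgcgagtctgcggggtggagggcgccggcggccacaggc

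The Cux2 window shown holds the CUT motif at -72 and, on the opposite strand, the E-box at -79 from the start. The CUT motif is in 0.925% of all 32851 windows of that length and the E-box in 17.2%. The SOX motif lies at -96 in the Tbr1 window and, on the opposite strand, at -71 in the Tle4 window shown, and is in 10.7% of all windows. The FOX motif lies at -158 in the Cux1 window and is in 3.65% of all windows. These matches describe letters and not binding.

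Rorb was spread over several gates and varied widely between libraries. Rorb encodes a nuclear receptor of layer 4 and 5 neurons (GRCm38 chr19:18930605-19111196, minus strand). Its lowest, median and highest levels were 105, 393 and 842 CPM in the Deptor gate, 93.1, 315 and 507 CPM in the Vwc2l gate and 39.6, 85.7 and 155 CPM in the Galnt14 gate. No neighbours in the order of the 6 gates had separate ranges. Rorb was called higher in the Deptor gate (log2 1.34, SE 0.13, adjusted p = 2.91e-12) and lower in the Galnt14 gate (-1.30, SE 0.16). Without the library labelled Chd8 het male 2 these values were 1.38 and -1.36.

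Much Rorb RNA lay in nuclei that no gate took. The remainder had 166, 559 and 782 CPM of Rorb (lowest, median, highest), and among clusters with a median of at least 5000 UMIs the pooled level was highest, at 2207 CPM in cluster 3 (led by Adam33 and Pld5), 1614 CPM in cluster 12 (Grik1, Whrn) and 1026 CPM in cluster 9 (Thsd7a, Col26a1). Cluster 23, with a median of 2859 UMIs, had 1875 CPM of Rorb, but it has the astrocyte marker Slc1a3 among its leading genes, and its Rorb and Tle4 levels (288 CPM for Tle4) lie within the ranges of the astrocyte nuclei. These 3 clusters, singled out for their Rorb level, differed in the other upper-layer factors: Cux1 stood at 747, 543 and 87 CPM and Cux2 at 311, 405 and 101 CPM in clusters 3, 12 and 9. Clusters 3, 9 and 12 together held 12.8% to 18.7% of excitatory nuclei in 7 libraries and 7.37% in the library labelled Chd8 het male 2. Rorb within them stood at 1134 to 2135 CPM in the 7 and at 672 CPM in that library, so both the number of such nuclei and the level in them were lowest there. Outside the excitatory nuclei, Rorb was high in astrocytes (1345 to 2145 CPM) and stood at 134 to 382 CPM in microglia. Background RNA in microglia was not measured, so the value there is not read as expression. Rorb was low in GABAergic nuclei (27.3 to 56.5 CPM) and oligodendrocytes (29.4 to 72.5 CPM).

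Bcl11b and Fezf2, the zinc finger factors of ET neurons, had their highest median levels in the Erg gate. Bcl11b (Ctip2, GRCm38 chr12:107910403-108003602, minus strand) stood at 177, 236 and 293 CPM there (lowest, median, highest), at 107, 160 and 252 CPM in the Hs3st4 gate and at 86.7, 117 and 180 CPM in the Galnt14 gate. The Erg gate was above the Hs3st4 gate in all 8 libraries with overlapping ranges. The Ccbe1 and Deptor gates, with medians of 21.3 and 18.5 CPM, lay below every library of the other 4 gates. Bcl11b was called higher in the Erg (log2 1.84, SE 0.14) and Hs3st4 gates (1.16, SE 0.10) and lower in the Ccbe1 (-1.82, SE 0.15) and Deptor gates (-2.33, SE 0.16). GABAergic nuclei held Bcl11b at 113 to 140 CPM and oligodendrocytes at 6.44 to 22.5 CPM.

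Fezf2, which specifies subcerebral projection neurons in development (GRCm38 chr14:12342094-12348189, minus strand), gave few UMIs. It stood at 5.64, 21.3 and 31.6 CPM in the Erg gate from 82 UMIs, at 12.5, 16.9 and 23.6 CPM in the Vwc2l gate, and at 0, 1.15 and 3.67 CPM in the Ccbe1 gate from 25 UMIs. The Ccbe1 gate lay below every library of the other 5, whose neighbours overlapped. Fezf2 was called higher in the Erg gate (log2 1.42, SE 0.22) and lower in the Ccbe1 gate (-2.97, SE 0.24). In nuclei thinned to 3000 UMIs, shallower nuclei left out, Fezf2 was seen in 5.24% of Erg-gate, 5.86% of Vwc2l-gate and 0.433% of GABAergic nuclei, and its level was higher in the Erg than in the Vwc2l gate in 5 of 8 libraries, so these 2 gates are not ordered for Fezf2. Without thinning the shares were 28.4%, 15.96% and 1.31%, at median depths of 15075, 10634 and 8197.5 UMIs. Thinned microglia had Fezf2 in 2.22% of nuclei, against 2.57% in the Galnt14 gate and 0.277% in the Ccbe1 gate. These were 947 microglia, and 1837 with too few UMIs were left out (median of the class 1908.5 UMIs). Whether such low shares lie above background RNA was not tested.

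Sox5, a SOX factor that times deep-layer fates, was detected in every gate (GRCm38 chr6:143828425-144781977, minus strand). Its lowest, median and highest levels were 819, 1039.6 and 1324 CPM in the Erg gate, 615, 683 and 771 CPM in the Hs3st4 gate and 230, 276 and 317 CPM in the Deptor gate. The Erg gate lay above every library of the other gates. Sox5 was called higher there (log2 1.20, SE 0.06) and lower in the Deptor gate (-1.07, SE 0.07). It was abundant in GABAergic nuclei too (665 to 847 CPM) and low in oligodendrocytes (62.8 to 102 CPM). Short genes on the opposite strand overlap Sox5, of which Sox5os4 counted 5.01% of the UMIs of Sox5.

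Foxp2 gave the largest difference of any member. Foxp2 is a forkhead factor of layer 6 corticothalamic neurons (GRCm38 chr6:14901349-15441977, plus strand). In the Hs3st4 gate its lowest, median and highest levels were 526, 687 and 781 CPM, against 64.7, 86.2 and 107 CPM in the Vwc2l gate and 11.0, 15.4 and 27.8 CPM in the Ccbe1 gate. The Hs3st4 gate was separate from all others, and its median was 7.97 times that of the Vwc2l gate. The log2 difference was 4.07 (SE 0.08, adjusted p = 1.79e-41, edgeR). Foxp2 was called lower in the Ccbe1 (-2.08, SE 0.16) and Erg gates (-1.30, SE 0.22), though with types from clusters the Erg value was -0.15 and not called.

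Tle4, a Groucho-type co-repressor (GRCm38 chr19:14448150-14598051, minus strand), had the same highest gate and a second high one. It stood at 467, 635 and 721 CPM in the Hs3st4 gate, at 216, 306 and 409 CPM in the Vwc2l gate and at 69.0, 87.5 and 111 CPM in the Galnt14 gate. The ranges of these 3 gates did not overlap. Tle4 was called higher in the Hs3st4 (log2 2.96, SE 0.07) and Vwc2l gates (1.67, SE 0.09) and lower in the Ccbe1 (-1.79, SE 0.12) and Erg gates (-1.65, SE 0.17). Tle4 was also present in astrocytes (248 to 439 CPM).

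Tbr1, a T-box factor required for layer 6 identity (GRCm38 chr2:61802930-61814114, plus strand), was at low counts throughout. It stood at 32.0, 34.6 and 41.1 CPM in the Hs3st4 gate, at 14.2, 20.8 and 27.0 CPM in the Deptor gate and at 0, 5.19 and 15.1 CPM in the Erg gate, from 24 UMIs in the last. The Hs3st4 gate lay above every library of the other gates. Tbr1 was called higher there (log2 1.29, SE 0.09) and lower in the Erg gate (-1.67, SE 0.27). In thinned nuclei it was seen in 10.3% of the Hs3st4 gate and 5.26% of the Ccbe1 gate. The shares were 5.39% in microglia, 3.24% in astrocytes and 1.07% in GABAergic nuclei. The microglia are the 947 that could be thinned, with 1837 left out, and background RNA was not measured. Unthinned, it was seen in 27.0% of the Hs3st4 gate and 3.01% of GABAergic nuclei.

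**Figure D2:**
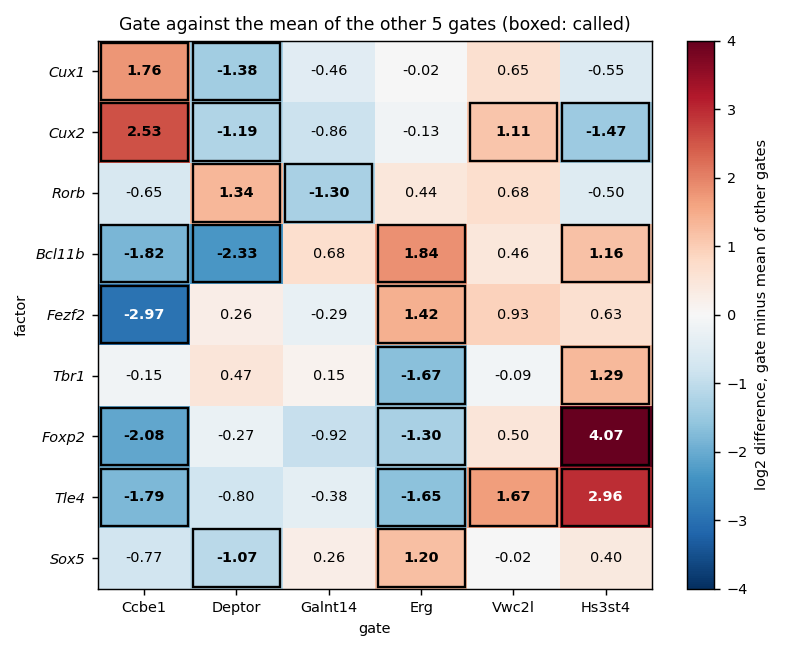
Log2 difference of each factor (rows) in each gate (columns) from the mean of the other 5 gates, with boxes around the 25 called values. Foxp2 and Tle4 in the Hs3st4 gate (4.07 and 2.96) and Cux2 in the Ccbe1 gate (2.53) are the highest.

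Each gate thus carried its own combination, as the plot of differences between gates shows. These combinations come from sums over the nuclei of a gate and need not occur in 1 nucleus. The upper-layer IT-like Ccbe1 gate had 2 members called higher, Cux1 and Cux2 (3.21% of all genes were called higher there), and 4 lower, Bcl11b, Fezf2, Foxp2 and Tle4 (2.95%). The layer 5 IT-like Deptor gate had Rorb higher (1.70% of all genes) and Cux1, Cux2, Bcl11b and Sox5 lower (2.28%). The Erg gate had Bcl11b, Fezf2 and Sox5 higher (3.12%) and Tbr1, Foxp2 and Tle4 lower (3.69%). A lower call is relative to a mean that includes the gates with the highest levels. For Foxp2 the Erg median was 2.03 times that of the Ccbe1 gate, and the Galnt14 median was 1.09 times that of Erg. For Tle4 the Erg median was 1.32 times that of the Ccbe1 gate, with Erg higher in 4 of 8 libraries. The corticothalamic-like Hs3st4 gate had Foxp2, Tle4, Tbr1 and Bcl11b higher (1.88%) and Cux2 lower (4.59%). The near-projecting-like Vwc2l gate had Tle4 and Cux2 higher (1.77%) and no member lower (0.111%), and the Galnt14 gate had no member higher (1.27%) and Rorb lower (0.256%). Of the 25 calls, 8 ended under at least 1 other setting: Cux2 and Sox5 in the Deptor gate, Rorb in the Galnt14 gate, Foxp2 and Sox5 in the Erg gate, Tbr1 in the Hs3st4 gate, and both calls of the Vwc2l gate. In that gate Cux2 turned to -0.86 with types from clusters, and Tle4 was 0.79 with nuclei of several gates left out.

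Over the 6 gates the pairs of members with the most similar levels were Bcl11b and Sox5 (correlation of mean log2 CPM 0.97), Cux1 and Cux2 (0.95) and Foxp2 and Tle4 (0.93). The points share libraries and depth. By the same measure over 3592 genes with at least 50 CPM in 1 gate, the gene most like each other member was Fgf13 for Cux2 (0.98), Ankrd13c for Rorb (0.98), Kmt2c for Bcl11b (0.99), Dip2a for Fezf2 (0.996), Dmxl2 for Tbr1 (0.999), Rsbn1l for Foxp2 (0.997), Glra2 for Tle4 (0.997) and Ranbp10 for Sox5 (0.99). After Gm16599, Calb1 and Nova2 were most like Cux1 (0.97 and 0.96), and the marker Syt6 was among the 3 genes most like Foxp2 (0.99). Each of these values, that of Gm16599 included, is among the highest of 3592 correlations over only 6 points. Such a search gives values near 1 by selection alone, so they do not set these genes apart.

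Members were also read within single nuclei thinned to 3000 UMIs. In the Hs3st4 gate 2318 of 3733 nuclei (62.1%) held both Foxp2 and Tle4, where the product of the separate shares within libraries gives 58.3%. In the same gate 29.1% held both Bcl11b and Foxp2 (product 27.4%). In the remainder 0.935% held both Cux2 and Bcl11b, below the product of 2.74%, and 18.1% held both Cux2 and Rorb (product 16.3%). The first 2 pairs and Cux2 with Rorb lay slightly above the product of shares, and Cux2 with Bcl11b below it. No test was made, since nuclei of 1 library are not replicates.

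The clusters give a second view of types that the gates took, and describe layer 6b, whose Nxph4 gate stayed empty. No test was made, because all cells were clustered on their genes. Cluster 21 (325 nuclei), led by Svil and with Moxd1 and Ccn2 among its leading genes, held 33 of the 55 nuclei with any Nxph4 UMI. Svil, Moxd1 and Ccn2 are markers of layer 6b. In this cluster Tle4 had 613, 791 and 921 CPM (lowest, median, highest library), as in the corticothalamic-like cluster 2 (571, 703 and 823 CPM). Foxp2 in contrast had 74.1, 122 and 174 CPM, below the 675, 853 and 959 CPM of cluster 2 in every library.

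Cluster 16, with Nxph1, Vwc2l and Tshz2 among its leading genes, joined factors of several layers. It had Fezf2 at 27.4, 36.5 and 66.9 CPM, Bcl11b at 194, 230 and 326 CPM and Tle4 at 496, 689 and 972 CPM. Foxp2 lay between, at 135, 182 and 276 CPM. Bcl11b and Fezf2 were highest in cluster 26 (681 and 48 CPM pooled over libraries, 179 nuclei, with 4 nuclei in its smallest library), whose Tle4 level was low at a median of 31.1 CPM. Cluster 8, which has Erg among its leading genes, had Bcl11b at 220, 266 and 356 CPM and Sox5 at 958, 1059.6 and 1166 CPM.

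Foxp2 ranked the layer 6 clusters in another order than Tle4 and Sox5 did. Clusters 2, 10 and 20, all led in part by Syt6, had Tle4 at 710, 611 and 767 CPM and Foxp2 at 852, 672 and 559 CPM. Sox5 stood at 791, 598 and 1002 CPM in them. The upper-layer clusters 0 and 1, led by 9630002D21Rik and 6530403H02Rik, had Cux2 at 362 and 270 CPM, Cux1 at 446 and 380 CPM and Rorb at 79 and 28 CPM. Cluster 24 (Lgr5, Dnah14) had 969 CPM of Sox5 with 28.9 CPM of Foxp2, 17.2 CPM of Tle4, 16 CPM of Bcl11b, 8.20 CPM of Tbr1 and no UMI of Fezf2.

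**Figure D3:**
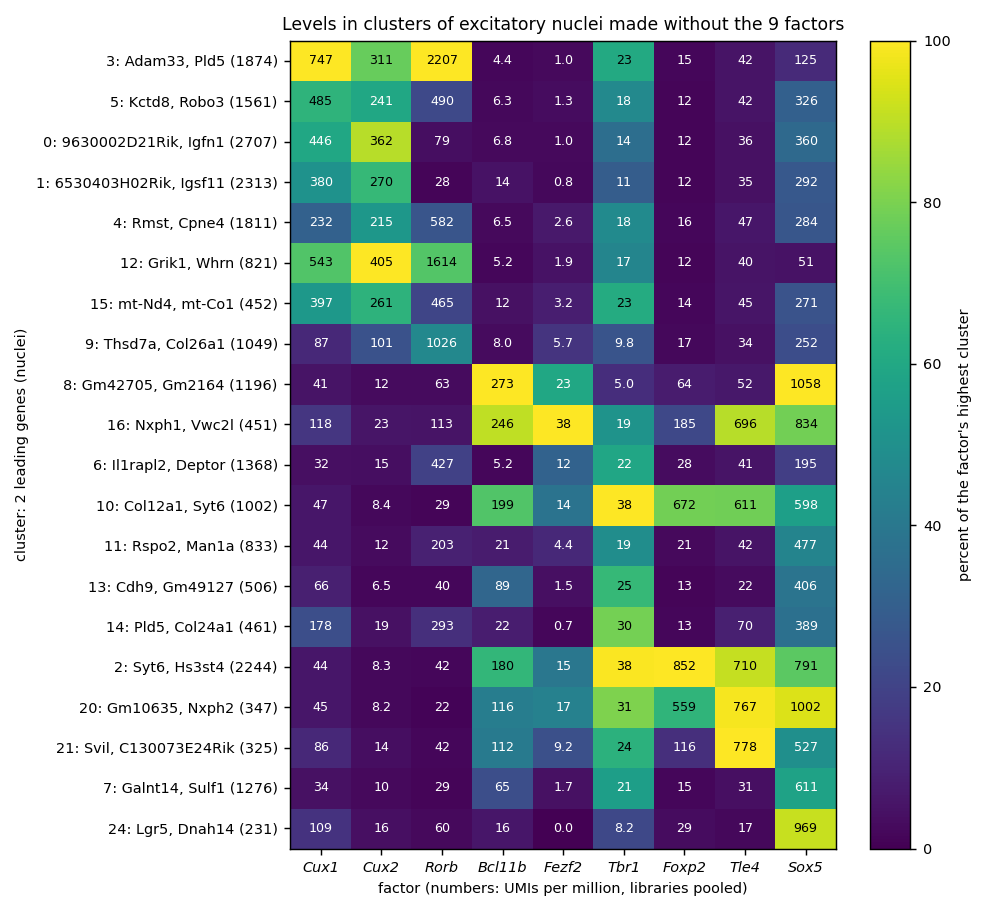
Level of each factor (columns) in the 20 clusters of excitatory nuclei with at least 10 nuclei in every library and a median of at least 5000 UMIs (rows, with 2 leading genes and the number of nuclei). Numbers are CPM over pooled libraries and colour is the percent of the factor's highest cluster shown; clusters 3 and 12 are bright for Cux1, Cux2 and Rorb, and clusters 2, 10 and 20 for Tbr1, Foxp2 and Tle4.

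Other regulators of layer and projection identity, 36 in a list drawn up with earlier results of these data known, gave 30 genes tested in the gates. In the Hs3st4 gate 4 were called higher and 8 lower, in the Erg gate 5 higher and 4 lower, in the Ccbe1 gate 3 and 4, in the Deptor gate 3 and 3, in the Vwc2l gate 2 and 0, and in the Galnt14 gate 1 and 0. Of all genes, 1.88% were called higher and 4.59% lower in the Hs3st4 gate, 3.12% and 3.69% in the Erg gate, 3.21% and 2.95% in the Ccbe1 gate, 1.70% and 2.28% in the Deptor gate, 1.77% and 0.111% in the Vwc2l gate, and 1.27% and 0.256% in the Galnt14 gate. The median log2 difference of the 30 was 0.15 in the Hs3st4 gate and -0.29 in the Ccbe1 gate, against 0.02 and 0.01 for all genes. The repressor Bcl6 was higher in the Erg gate (log2 3.46) and lower in the Hs3st4 gate (-2.54), and Pou3f1 behaved alike (2.41 and -2.16). Zfhx4 was higher in the Ccbe1 gate (3.32), Tshz2 in the Vwc2l gate (3.03) and Nr4a2 in the Galnt14 gate (2.30). Nfia (2.43), Zfpm2 (2.27), a cofactor of GATA proteins, and Zfhx3 (2.10) were higher in the Hs3st4 gate together with Foxp2 and Tle4.

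The comparison of genotypes asked whether these identities differed in Chd8 het cortex. No member was called in any of 8 units (the 6 gates, the remainder and all excitatory nuclei together), in 70 tests of members. Over all genes 0 of 98935 tests (0%) passed an adjusted p of 0.05 (edgeR quasi-likelihood, sex in the model), and 2135 (2.16%) had an unadjusted p under 0.05, among them 7 of the 70. DESeq2 called 5 genes. With a replicate block for the pairs of the same sex and number, 18 tests passed (0.0182%) and 5698 (5.76%) had an unadjusted p under 0.05, and none of the 18 was of a member. Fezf2 in the Ccbe1 gate and Tbr1 in the Erg gate had too few UMIs to be tested.

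**Figure D4:**
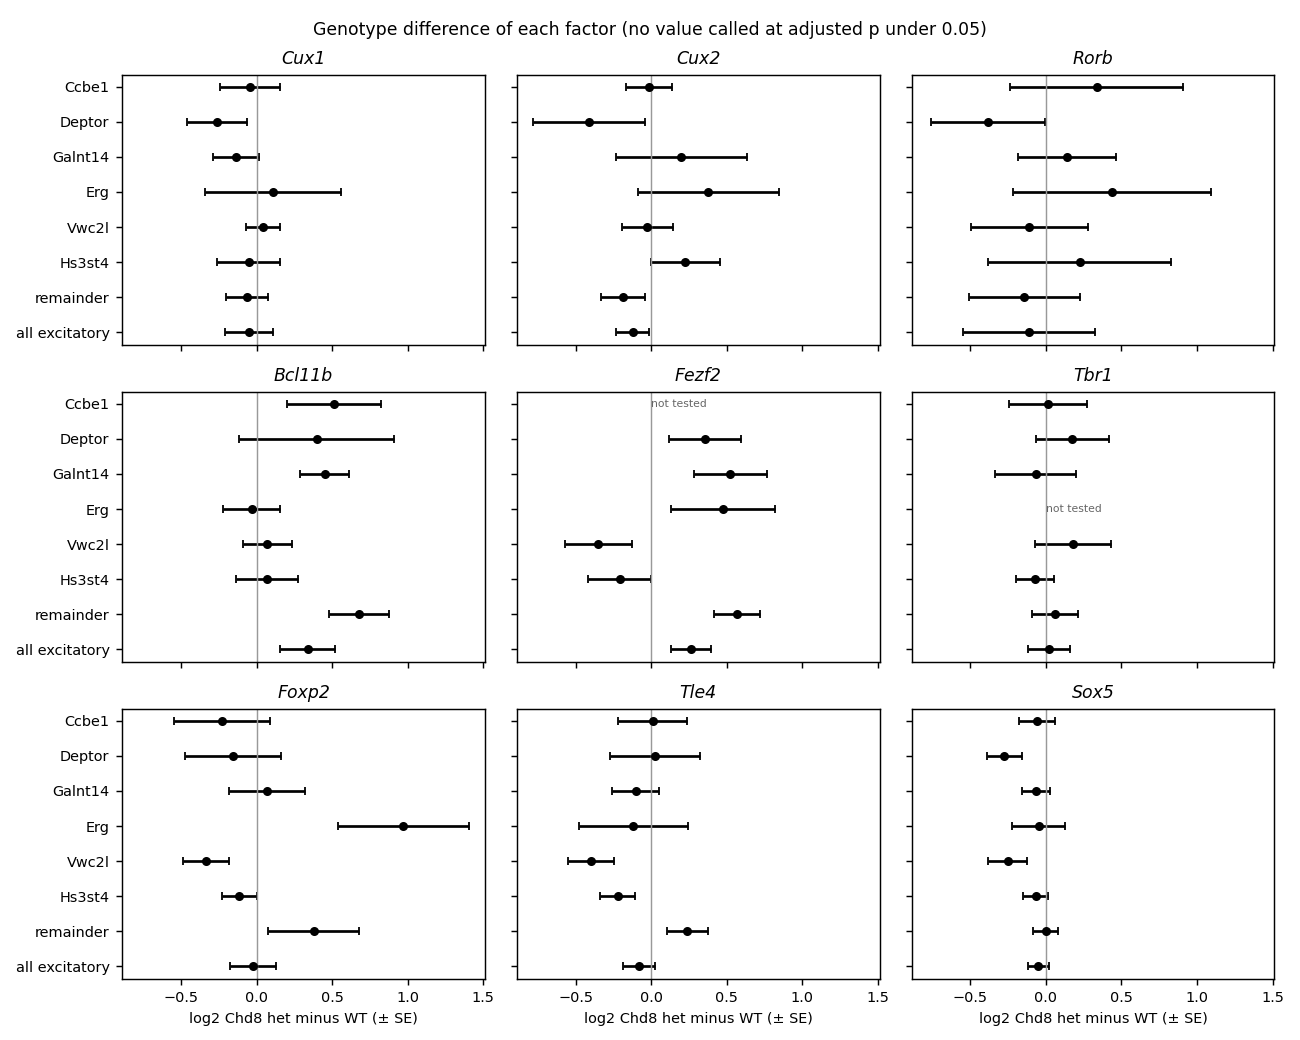
Log2 difference of Chd8 het minus WT (horizontal axis) with its standard error for each factor in the 6 gates, the remainder and all excitatory nuclei (vertical axis), from 4 libraries against 4. No value was called, and Bcl11b and Fezf2 in the remainder (0.68 and 0.57) had the smallest p-values.

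Over all excitatory nuclei the differences of Chd8 het minus WT on the log2 scale were -0.05 (SE 0.16) for Cux1, -0.12 (SE 0.11) for Cux2, -0.11 (SE 0.44) for Rorb, 0.34 (SE 0.18) for Bcl11b and 0.26 (SE 0.13) for Fezf2. They were 0.02 (SE 0.14) for Tbr1, -0.03 (SE 0.15) for Foxp2, -0.08 (SE 0.11) for Tle4 and -0.05 (SE 0.07) for Sox5. In sums over nuclei, fewer nuclei of a type and less RNA per nucleus cannot be told apart. The genotypes overlapped for each member there, and adjusted p was 1.00 for all 9.

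Rorb shows how far 1 library can carry such a value. Over all excitatory nuclei WT males 1 and 2 had 491 and 258 CPM, and WT females 1 and 2 had 622 and 284 CPM. Chd8 het males had 443 and 119 CPM, and Chd8 het females 608 and 456 CPM. The 4 single-indexed libraries (443 to 622 CPM) were higher than 3 of the 4 dual-indexed ones (119 to 456 CPM). Without the library labelled Chd8 het male 2 the log2 difference turned from -0.11 to 0.22.

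The smallest p-values were those of Fezf2 and Bcl11b in the remainder. Bcl11b stood at 28.6 and 29.6 CPM in WT males 1 and 2 and at 26.2 and 27.2 CPM in WT females 1 and 2. It stood at 44.7 and 74.3 CPM in Chd8 het males and at 30.2 and 39.99 CPM in Chd8 het females. All 4 Chd8 het libraries lay above all 4 WT libraries, with male 2 the highest. The log2 difference was 0.68 (SE 0.20, unadjusted p = 0.00785, adjusted p = 1.00, edgeR), and 0.46 without the library labelled Chd8 het male 2. Fezf2 stood at 3.51, 3.60, 2.83 and 3.44 CPM in the WT and at 5.60, 5.76, 5.05 and 3.99 CPM in the Chd8 het libraries. Again the groups did not overlap, as they did not for Fezf2 in the Galnt14 gate (4.36 to 7.95 CPM in WT, 8.42 to 11.6 CPM in Chd8 het, log2 0.52, SE 0.24, unadjusted p = 0.0516, edgeR). For Fezf2 in the remainder the test gave a log2 difference of 0.57 (SE 0.15, unadjusted p = 0.00549, adjusted p = 1.00, edgeR). How many of all genes separated the genotypes in these units was not counted. Outside the tested units, Cux1 in oligodendrocytes separated as well, with means of 156 CPM in WT and 123 CPM in Chd8 het. The units were named for their smallest p or for the separation itself, so the separation is not read as a result about Bcl11b, Fezf2 or Cux1.

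The make-up of the remainder also differed between the genotypes in each pair. Nuclei of the 5 clusters matched to Erg, of which clusters 8 and 26 are the richest in Bcl11b, made up 4.76%, 6.08%, 5.65% and 8.31% of the remainder in the 4 WT libraries and 9.94%, 12.3%, 7.14% and 11.4% in the Chd8 het libraries in the same order, higher in 4 of 4 pairs. The genotypes overlapped in this share. Among all excitatory nuclei these clusters were mixed by gate, with 194 nuclei from the Erg gate, 347 from the Galnt14 gate and 1346 from the remainder. Within the remainder nuclei of these clusters Bcl11b overlapped between genotypes (237 to 291 CPM in WT, 246 to 295 CPM in Chd8 het). In the other nuclei of the remainder, cluster 18 left out, Bcl11b was 12.8, 11.6, 11.7 and 10.7 CPM in the WT libraries. It was 20.5, 20.2, 14.4 and 9.20 CPM in the Chd8 het libraries in the same order, higher in every pair except female 2. Fezf2 in these nuclei was 2.56, 2.51, 2.28 and 2.05 CPM in the WT libraries. It was 3.28, 3.84, 3.204 and 2.33 CPM in the Chd8 het libraries, higher in 4 of 4 pairs. How far the share of Erg-type nuclei accounts for the differences in the remainder was not tested. Cluster 18 gave 253 remainder nuclei of the library labelled Chd8 het male 2 and at most 12 of any other, and without it Bcl11b in that library was 53.5 CPM. As a share of all excitatory nuclei, Erg-type clusters made up 6.73% ± 1.17 in WT and 9.30% ± 1.45 in Chd8 het libraries (SD, n = 4 each, exact two-sided permutation p = 0.0571, adjusted p = 0.343 over 8 types). The Erg gate itself held 0.857% ± 0.33 in WT and 0.935% ± 0.41 in Chd8 het libraries (same permutation test, p = 0.714, higher in 2 of 4 pairs). The 8 markers of GABAergic neurons, which also hold Bcl11b, summed to 55.6 to 104 CPM in the WT and 69.2 to 110 CPM in the Chd8 het remainder, and no GABAergic marker was at 0. The 5 markers of striatal projection neurons summed to 721 to 2201 and 552 to 1771 CPM, a median of 98.9% of it Pde10a, with Drd2 and Adora2a at no more than 0.831 CPM in any library. Their part in the result was not tested.

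**Figure D5:**
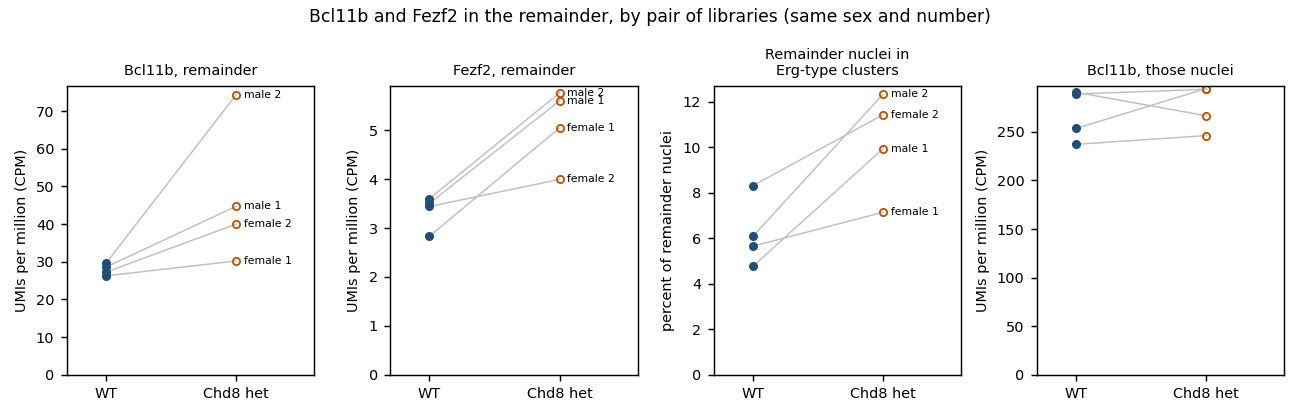
Bcl11b and Fezf2 in the remainder, the percent of remainder nuclei that lie in Erg-type clusters, and Bcl11b within those nuclei (vertical axes from 0), for WT (filled) and Chd8 het (open) libraries joined by sex and replicate number. The left 3 panels rise in all 4 pairs, while Bcl11b within Erg-type nuclei spans 237 to 295 CPM over both genotypes.

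In their units of smallest p the other members gave no call either. Foxp2 in the Erg gate had a log2 difference of 0.97 (SE 0.43, unadjusted p = 0.0396) but rests on 5 to 30 UMIs per library, and the genotypes overlapped (9.27 to 33.8 CPM in WT, 15.8 to 54.2 CPM in Chd8 het). With the gate at 2 UMIs it was -0.14, and with types from clusters 0.14. Tle4 in the Vwc2l gate stood at 304 to 409 CPM in WT and at 216, 242, 248 and 338 CPM in Chd8 het libraries (log2 -0.40, SE 0.15, unadjusted p = 0.0201). Sox5 in the Deptor gate stood at 265 to 317 CPM in WT and 230 to 288 CPM in Chd8 het libraries (log2 -0.28, SE 0.12, unadjusted p = 0.0341). Cux1 (-0.26), Rorb (-0.39) and Tbr1 (0.17) in the Deptor gate and Cux2 in the remainder (-0.19) had unadjusted p-values of 0.21, 0.329, 0.482 and 0.231. Over the units of each member the values ran from -0.26 to 0.11 for Cux1, from -0.41 to 0.38 for Cux2, from -0.39 to 0.44 for Rorb, from -0.03 to 0.68 for Bcl11b, from -0.35 to 0.57 for Fezf2, from -0.07 to 0.18 for Tbr1, from -0.34 to 0.97 for Foxp2 and from -0.40 to 0.24 for Tle4. For Sox5 they ran from -0.28 to -0.0016, the last in the remainder, where the mean CPM was higher in Chd8 het (366 against 358 CPM).

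The share of excitatory nuclei in each gate was compared too, since the members mark these types. The Vwc2l gate held 3.77% ± 0.79 in WT and 4.71% ± 0.72 in Chd8 het libraries (SD, n = 4 each, higher in 4 of 4 pairs, exact two-sided permutation p = 0.143). The difference was 0.801 percentage points among single-indexed and 1.09 among dual-indexed libraries. With the gate at 2 UMIs (4.81% and 6.34%) and with nuclei of several gates left out (1.98% and 2.69%) p was 0.0286, the smallest that 4 against 4 allow (adjusted p = 0.229 and 0.2). By the same test p was 0.143 with doublets kept and 0.229 with 1 UMI of Slc17a7. It was 0.371 with nuclei thinned to equal depth, 0.429 with the gate at 5 UMIs and 0.8 with types from clusters. The Hs3st4 gate held 14.8% ± 0.86 and 14.9% ± 1.03, and the Ccbe1 gate 4.13% ± 1.67 and 4.54% ± 2.06. No share passed adjustment (adjusted p = 0.914 for all 7), which no single gate could do at this number of libraries, so the test does not show that shares were alike. It does not take account of index type, by which 3 shares separated fully. Depth per kept nucleus separated in the same way, with library medians of 4963 to 5941 UMIs in single-indexed and 5989 to 7452 UMIs in dual-indexed libraries. Index type and depth cannot be told apart here. The Galnt14 share was 3.62% to 5.08% in single-indexed and 7.15% to 12.1% in dual-indexed libraries (Chd8 het minus WT 0.369 and -2.30 points). The Ccbe1 share was 2.20% to 3.27% and 4.72% to 7.38% (0.294 and 0.533 points), and the remainder 68.8% to 72.1% and 56.5% to 59.8% (-1.97 and 1.29 points). Of the 36 other regulators, 21 to 34 were tested in each unit, and none was called between genotypes.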

How the data were processed

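The authors deposited UMI counts per gene and barcode for 8 libraries, and the submitters' processing notes name STAR 2.7.9a, STARsolo, Cell Ranger and mm10. Use of intron reads and of strand is not given in the sources used here. Nuclei with at least 500 genes and at most 5% mitochondrial UMIs were kept, and 4513 Scrublet doublets were removed of 82168. Libraries shared at most 0.398% of barcodes. Excitatory nuclei had at least 2 UMIs of Slc17a7, at most 1 of Gad1 and Gad2 and at most 2 summed over a set of marker genes of other cell types, not all of which are reported here. A nucleus that passed several gates went to the highest ratio. Counts were summed per library and type and tested with edgeR 4.0.16 (minimum count 10, TMM, quasi-likelihood, Benjamini-Hochberg), with library as a block between gates and sex as covariate between genotypes. The fits were tested on simulated data. DESeq2 1.42.0 was an alternative. Shares were thinned to 3000 UMIs. Clusters came from scanpy 1.11.5 and leidenalg 0.10.2 (resolution 1.5). Gene positions are from GENCODE M21 and start-site windows from RefSeq.

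The design names litter-matched pairs but not which libraries form them. Deviations from the group means went together in all 4 pairs matched by sex and number (correlation 0.326 to 0.65), as they did, at 0.28 to 0.545, between libraries of the same index type and other sex, and this number is also the index type. For genotypes and shares the p-values measure the spread between these 8 animals, which includes that of index type. Between gates, with library as a block, they measure the spread that remains within the same 8 libraries.

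The members, gates and lists were chosen with earlier results of these data known. Named were all members, for genotype in all excitatory nuclei and in the unit of their smallest p, the regulators called with the largest differences, and the genes most like each member.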

Additional observations from a re-analysis of the deposited data

Results flagged for a closer look

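In the 4 Chd8 het libraries the share of excitatory nuclei in the Deptor gate was 5.27% in the library labelled Chd8 het male 2 and 2.99% to 3.15% in the other 3, which sets that library apart from its group. It lies within the WT range of 2.01% to 5.30%, whose highest library is WT male 2, of the same sex, number and index type. Of 50 groups of 4 examined in this way, chance sets apart about 1 in 20. The gate is where Rorb was called higher, and Rorb in this gate was 105 CPM in that library, the lowest of the 8.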

How the results depend on the processing

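The number of members called between gates was 25 in the reported setting and 17 to 32 under the alternatives, within 1.5 times throughout, and 25 to 26 with each library left out. The types tested differed between settings, and types from clusters included an Nxph4 type. A type with fewer than 10 nuclei in any library was left out, so some calls have no value in some settings. Wherever they were tested, the 25 calls kept their direction, with 1 exception: Cux2 in the Vwc2l gate, which was -0.86 with types from clusters. Beside it, a call ended in a setting in 17 cases. In these the value kept its direction and fell under 2-fold or lost its adjusted p. Some calls ended in several settings, so fewer than 17 calls were affected. Among the cases were Cux2 (-0.21) in the Deptor gate and Foxp2 (-0.15) in the Erg gate with types from clusters. Tle4 in the Vwc2l gate (0.79) with nuclei of several gates left out was another. No member was called between genotypes under any setting, left-out libraries included, and no share of a gate passed adjustment, though 1 share alone could not have passed it (the Vwc2l share reached an exact permutation p of 0.0286 in 2 settings). The number of tests called between genotypes over all genes and units was 0 in the reported setting and with each library left out. It was 89 with no count filter, 5 with the DESeq2 Wald test, 18 with the replicate block and 11 with index type added. A gene called in several units counts once for each. The replicate block changed no call of a member. Some uncalled differences between genotypes changed sign: with gates at 2 UMIs Cux1 in the Deptor gate went from -0.26 to 0.10 and Foxp2 in the Erg gate from 0.97 to -0.14, and Tbr1 over all excitatory nuclei was -0.0093 with 1 UMI of Slc17a7. With each library left out, values over all excitatory nuclei ran from -0.16 to 0.10 (Cux1), -0.48 to 0.22 (Rorb), -0.078 to 0.15 (Tbr1), -0.17 to 0.082 (Foxp2) and -0.18 to 0.0052 (Tle4), and Tbr1 in the Deptor gate from -0.0054 to 0.40. Differences in shares, in percentage points of Chd8 het minus WT, changed sign with types from clusters (Ccbe1 -2.96, Deptor 0.074, remainder 0.10), gates at 5 UMIs (Erg -0.0086, remainder 0.40), gates at 2 UMIs (Hs3st4 -0.21), 1 UMI of Slc17a7 (Hs3st4 -0.23, remainder 0.29), doublets kept (Hs3st4 -0.22, remainder 0.11), nuclei of several gates left out (Deptor 0.046) and thinning (remainder 0.12). With each library left out they ran from -0.53 to 0.93 (Ccbe1), -0.85 to 0.25 (Deptor), -2.67 to 0.41 (Galnt14), -0.067 to 0.27 (Erg), -0.33 to 0.51 (Hs3st4) and -3.04 to 2.13 (remainder). The cause of these changes was not tested. Depth limits Fezf2 and Tbr1, with 82 and 24 UMIs in the 229 nuclei of the Erg gate.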
